A study of Drosophila melanogaster with 34 samples.

Results

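Combgap (Cg) is a zinc finger protein that binds DNA at Polycomb response elements, the stretches of the fly genome from which Polycomb group complexes keep developmental genes repressed. Crooked legs (Crol) is a second zinc finger protein, and the study tested it as a partner of Cg at these elements. Polycomb response elements carry sites for several DNA-binding proteins that act in combination, so the removal of 1 of them need not empty an element. The comparison described here asked where Cg was found on the chromosomes of Drosophila melanogaster larvae that lack crol, and whether its peaks kept their position, shape and height.

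Cg was mapped by ChIP-seq in imaginal discs and brains of 3rd instar larvae in 2 genotypes. The crol-KO group held 2 samples from larvae of a line in which part of crol was deleted with CRISPR/Cas9 and replaced by a DsRed marker, and the labels do not say that the larvae were homozygous. The wild-type (WT) group held 2 samples of the same tissues. The study states that faint Crol bands remained on a Western blot of crol-KO larvae, which it ascribes to protein from the mother, and that homozygotes mostly died late in the pupa, so crol-KO need not mean that Crol was absent. No other treatment or allele is named, and the labels do not give the WT strain for ChIP-seq. Peak lists hold no RNA or protein levels, so neither the tissue nor the genotype label could be checked from them. Discs and brains hold many cell types together, so a change in Cg within cells and a change in the cell mixture cannot be told apart.

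The members are all Cg peaks on the X chromosome, both arms of chromosomes 2 and 3, and chromosome 4 in the dm3 build, 9299 in the crol-KO list and 8938 in the WT list, of 47852 peaks in all 5 lists of the series. The reads of both replicates of a genotype were pooled before peaks were called, so each genotype gave 1 list. No difference between genotypes could therefore be set against the spread between replicates, and no p-value is given. The intervals in brackets are exact 95% intervals that cover counting error only and ignore that neighbouring peaks depend on each other. The depth recovered from the values of the peaks was 3.57 M reads in crol-KO and 3.42 M reads in WT, a ratio of 1.04. The pileup, the number of extended reads stacked on the summit of a peak, had a median of 59 in the crol-KO list (20 to 298) and 56 in the WT list (21 to 256). The direction of Crol itself at matched sites depended on the scaling. The log2 pileup ratio, crol-KO over WT, was taken over 7604 couples of 1 crol-KO and 1 WT Crol peak. Its median was 0.11 (0.10 to 0.12) when scaled by depth, which does not show lower Crol over these couples as a set. It was -0.031 (-0.042 to -0.022) when scaled by the 10% of pairs with the highest pileup. Neither median speaks to single sites. Unmatched Crol peaks are left out of both, 1889 of 10139 in the WT list and 1752 of 9883 in the crol-KO list. From a differential binding test, the paper reports loci with significantly decreased Crol in crol-KO, and decreased Cg at some of these loci.

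Cg peaks stood at largely the same places in both genotypes, and the crol-KO list covered more of the genome. Of the crol-KO peaks, 1455 of 9299 had no WT Cg peak over them and are called new, which is 15.6% (14.9 to 16.4). Of the WT peaks, 943 of 8938 had no crol-KO Cg peak over them and are called lost, which is 10.6% (9.92 to 11.2). Both names describe the lists: a peak that misses the threshold in 1 list was not detectable there at this depth, and need not be absent. The lists shared 4.68 Mb, which was 77.3% of the 6.06 Mb covered in crol-KO and 85.7% of the 5.47 Mb covered in WT. New peaks made up 0.5997 Mb and lost peaks 0.387 Mb. The extra edges of matched peaks made up a larger part, 0.774 Mb found in crol-KO alone and 0.397 Mb found in WT alone.

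New and lost peaks were narrow and low. New peaks had a median pileup of 36 (quartiles 31 and 43) and a median width of 381 bp, against 66 and 571 bp for matched crol-KO peaks. Lost peaks had a median pileup of 36 (31 and 42) and a median width of 378 bp, against 59 and 530 bp for matched WT peaks. Width ordered the peaks steeply. Among peaks of at most 350 bp, 499 of 969 crol-KO peaks were new (51.5%, 48.3 to 54.7) and 343 of 1017 WT peaks were lost (33.7%, 30.8 to 36.7). Among peaks of over 1000 and up to 1500 bp, 2 of 863 crol-KO peaks were new and 3 of 685 WT peaks were lost. None of the 349 crol-KO peaks and none of the 220 WT peaks wider than 1500 bp lacked a partner, which allows shares of up to 1.05% and 1.66%. In every width class up to 1000 bp the new share lay above the lost share.

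**Figure D1:**
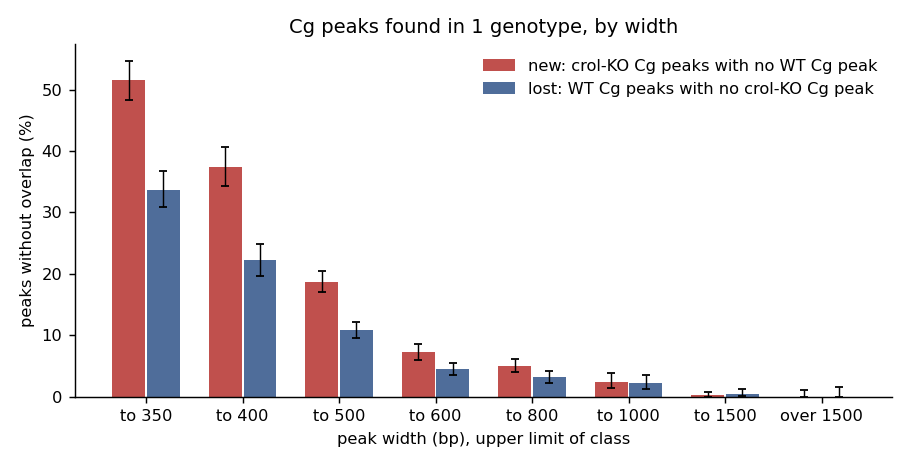
Share of Cg peaks with no overlapping peak in the second genotype (vertical axis, percent) by peak width in bp (horizontal axis), for crol-KO peaks (red, new) and WT peaks (blue, lost), with exact 95% intervals as error bars. Both shares are highest in peaks of at most 350 bp, 51.5% and 33.7%, and no peak wider than 1500 bp was unmatched in either list.

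The matching rule seldom decided a call by a few bases. Of 8084 overlapping couples of peaks, 11 shared under 50 bp, the shortest overlap was 12 bp and the median overlap was 488 bp. Just outside the rule, 36 of 1455 new peaks and 28 of 943 lost peaks had a peak of the second list within 200 bp, the nearest at 17 bp for a new peak and 43 bp for a lost peak. The median distance to the nearest peak of the second list was 2587 bp for new peaks and 2983 bp for lost peaks. A new peak with no WT Cg peak within 1000 bp remained in 1057 cases, 11.4% of the crol-KO list (10.7 to 12.0), and a lost peak with no crol-KO Cg peak within 1000 bp in 716 cases, 8.01% of the WT list (7.46 to 8.59). Few unmatched peaks looked like 1 site that had moved: 48 new peaks lay within 1000 bp of a lost peak (3.30%, 2.44 to 4.35), and 49 lost peaks lay within 1000 bp of a new peak (5.20%, 3.87 to 6.81). Isolated sites were unmatched somewhat more often, with overlapping intervals for new peaks, and were also lower. With a neighbour of the same list within 500 bp the median pileup was 58 in crol-KO and 56 in WT. With none within 20000 bp it was 50.5 and 47. The new share was 15.7% (13.9 to 17.6) for crol-KO peaks with a neighbour of the same list within 500 bp and 19.1% (15.4 to 23.3) for those with none within 20000 bp, while the lost share of WT peaks was 8.72% (7.37 to 10.2) and 13.6% (10.5 to 17.2) at those spacings.

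The strongest unmatched peak of each arm was taken among those with no peak of the second list within 1000 bp. The highest new peak lay on 2L at chr2L:12424512-12425300, with a pileup of 102 and a fold enrichment over the local background of 7.998, which ranked 424 of 9299, and Crol peaks of both genotypes overlapped it. The new peak at chr2R:7021790-7022290 had a pileup of 88, with the nearest WT Cg peak 15.0 kb away, and a Crol peak was found there in crol-KO only. The remaining arms gave new peaks at chr3L:20704479-20704991 with a pileup of 70, chr3R:19788316-19788768 with 75, chrX:1417319-1417761 with 60 and chr4:156449-157174 with 42. Of the 6 new peaks, 3 overlapped a Crol peak of crol-KO only, 2 overlapped Crol peaks of both genotypes, and that on X overlapped none. Over all 1455 new peaks these states made up 29.3%, 38.6% and 24.9%.

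The highest lost peak by fold enrichment lay at chr2R:4963314-4963782, with a pileup of 69 and a fold enrichment of 6.997, which ranked 401 of 8938. The lost peak of highest pileup among these was chr3L:15290378-15290987, with 116 reads over a background of 18.2, and no crol-KO Cg peak stood within 21.0 kb of it. The lost peaks of 3R at chr3R:6783320-6783847 and of X at chrX:1103696-1104136 had pileups of 48 and 44. These 4 lost peaks were overlapped by a Crol peak of WT only, as were 33.3% of all 943 lost peaks. The lost peaks of 2L at chr2L:7928992-7929378 and of chromosome 4 at chr4:548188-548589 had pileups of 42 and 50. Both overlapped Crol peaks of both genotypes, as did 35.8% of all lost peaks. The named peaks follow the direction of the rule that picked them, and serve as places to look rather than as evidence.

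Where peaks matched, the match was nearly always 1 to 1. The 8084 overlaps formed 7755 groups of connected peaks, of which 7443 held 1 crol-KO and 1 WT peak (96.0%, 95.5 to 96.4). Merging was more frequent than splitting. In 223 groups 1 crol-KO peak covered several WT peaks, 217 of them covering 2 and 6 covering 3, while in 78 groups 1 WT peak covered 2 crol-KO peaks (1.01%, 0.796 to 1.25). The remaining 11 groups held 2 peaks of each genotype. The gap bridged in merged groups had a median of 205 bp (125 to 919), and the gap opened in split groups had a median of 183.5 bp (126 to 650).

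The merged group with 3 WT pieces and the highest summed enrichment lay on 2L, where a crol-KO peak of 2136 bp with a pileup of 125 (chr2L:7048895-7051030) covered WT peaks with pileups of 116, 42 and 55. At chrX:7985961-7988380 a single crol-KO peak of 2420 bp had a pileup of 89, and the 3 WT peaks under it had 43, 35 and 56, so here the crol-KO summit stood well above every WT piece. At chr2R:17600434-17602468 the crol-KO peak had a pileup of 138 over WT pieces of 98, 50 and 52. Among split groups, the crol-KO peaks chr2L:4809868-4810674 and chr2L:4811325-4812719 had pileups of 188 and 233, and the WT peak spanning both had 195. A WT peak of 3948 bp on 3R with a pileup of 167, the widest in its list, was met by crol-KO peaks of 2436 and 1436 bp with pileups of 72 and 192. At chrX:15213206-15214594 a WT peak with a pileup of 90 was met by crol-KO peaks with 114 and 106. On X both crol-KO pieces were thus higher than the WT peak they split.

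Summits hardly moved. In the 7443 one-to-one pairs the distance between the crol-KO and the WT summit had a median of 35 bp (34 to 36) with quartiles of 15 and 70 bp. The summits lay within 50 bp of each other in 4742 pairs (63.7%, 62.6 to 64.8) and within 100 bp in 6332 pairs (85.1%, 84.2 to 85.9). There was no common direction: the crol-KO summit had the larger coordinate in 3614 pairs and the smaller in 3761. Reads were extended to 300 bp before stacking, so most of these distances are a small part of 1 extended read. The distance shrank with height, and the median was 60 bp (54 to 66) in the decile of pairs with the lowest pileup and 26 bp (23 to 28) in the decile with the highest.

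Shifts of over 300 bp were found in 203 pairs (2.73%, 2.37 to 3.12), and their share grew with width. They made up 0.206% of pairs with a mean width of at most 400 bp (2 of 973), 0.631% of those up to 600 bp (22 of 3485), 3.09% up to 1000 bp (67 of 2167), 12.4% up to 1500 bp (78 of 627) and 17.8% (12.7 to 23.98) of wider pairs (34 of 191). The 3 longest shifts were 1818 bp on 2L (chr2L:6086579-6089076), 1393 bp on 3R (chr3R:8836644-8839151) and 1357 bp on X (chrX:529317-531459). In each of these the peaks were about equally high, with pileups of 110 in crol-KO and 119 in WT on 2L, 123 and 99 on 3R, and 88 and 72 on X, and their widths ran from 1948 to 2498 bp. The measure shows only that the highest point fell elsewhere within a broad peak.

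Matched peaks were somewhat wider in crol-KO. The width of crol-KO minus WT had a median of 33 bp (30 to 36) and quartiles of -32 and 107 bp, on median widths of 564 bp in crol-KO and 527 bp in WT. The crol-KO peak was the wider in 4758 pairs (63.9%, 62.8 to 65.0), the narrower in 2654, and of equal width in 31. Width and height were loosely related. Pairs whose pileup ratio lay above the median of all pairs had a width difference with a median of 60 bp (57 to 65), and pairs below it one of 5 bp (1 to 9). Relative to that median, 2821 pairs were wider and higher in crol-KO and 1764 narrower and lower, while 1935 were wider and lower and 890 narrower and higher. A deeper library also lifts more of a peak's flank over the threshold, and how much of the width difference goes with the 1.04-fold depth was not tested. The largest gain, 1321 bp, was at chrX:21844854-21846589, with a crol-KO width of 1736 bp against 415 bp in WT and pileups of 67 and 39. Gains of 1216 and 1064 bp followed at chrX:5781875-5783567 and chr3L:440705-442313. The largest narrowing was at chr2R:11005436-11006861, where the crol-KO peak measured 446 bp against 1426 bp in WT, with summit pileups of 51 and 48. Width fell by 813 bp at chr2L:14572732-14573940. It fell by 770 bp at chr3R:2948553-2950586, where the crol-KO summit was not lower but reached 110 against 91 in WT.

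**Figure D2:**
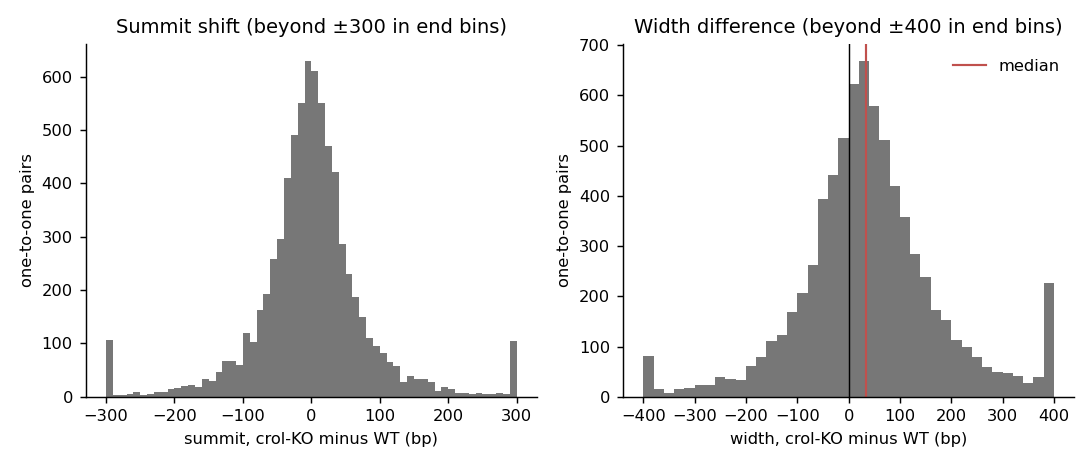
Left, distance in bp from the WT to the crol-KO summit in 7443 one-to-one pairs; right, width of the crol-KO peak minus that of the WT peak in bp, with the median in red and 0 in black. Vertical axes count pairs, and pairs beyond the axis are collected in the end bars. Summit shifts are centred on 0, while the width differences have a median of 33 bp.

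The height of matched peaks was compared by pileup divided by the recovered depth. On this scale the crol-KO over WT ratio had a median of 1.06 (1.06 to 1.07), or 0.09 on the log2 scale, but the sign depended on the scaling: with the median ratio of the 10% of pairs of highest pileup as the reference, the log2 median was -0.039, a shift of 0.13. Whether Cg was higher or lower overall can thus not be read from these lists, and differences among pairs are given below relative to the median of all pairs. The pairs spread narrowly. By recovered depth, 289 of 7443 pairs were at least 1.5-fold higher in crol-KO (3.88%), and 135 were at least 1.5-fold lower (1.81%). Relative to the median of all pairs these counts became 170 higher and 242 lower, and with the top 10% as reference 128 and 311. The counting interval of a single pair's ratio lay above 1 in 460 pairs (6.18%) and below 1 in 190 (2.55%) by recovered depth.

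The pairs with the most extreme ratios were read off among those with at least 50 reads at the higher summit. The highest was at chr2R:1976405-1976929, with pileups of 76 in crol-KO and 29 in WT, a depth-scaled ratio of 2.51 (1.62 to 4.00). At chr2R:17545274-17545838 the pileups were 147 in crol-KO and 62 in WT, a ratio of 2.27 (1.68 to 3.11), and at chr2L:8943021-8943560 they were 112 and 48, a ratio of 2.24 (1.58 to 3.20). The next were chrX:22256804-22257420 with 66 in crol-KO and 29 in WT, and chr2L:178819-179539 with 68 and 30. All 5 had Crol peaks in both genotypes, as did 6475 of all 7443 pairs, and their summits differed by 7 to 65 bp.

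The lowest ratio was at chr2R:7060746-7061606, with pileups of 37 in crol-KO and 110 in WT, a ratio of 0.322 (0.216 to 0.472), which is 3.10-fold lower in crol-KO. Pileups of 36 in crol-KO and 86 in WT at chr2L:9449063-9450113 gave a ratio of 0.401 (0.264 to 0.598). At chr3L:3536810-3537387 the pileup fell to 38 in crol-KO, against 87 in WT, on a crol-KO peak of the minimum width of 300 bp, and a Crol peak was found there in WT only. The pileups at chr2L:18463849-18464668 were 46 in crol-KO and 100 in WT, and at chr2L:10457378-10457919 they were 31 and 66. At 4 of these 5 pairs Crol peaks stood in both genotypes, as at 6475 of all 7443 pairs. The crol-KO peak was narrower than the WT peak at all 5, with differences of -675 to -86 bp.

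The X chromosome differed from chromosomes 2 and 3 in height, width and new peaks. Relative to the median of all pairs, the log2 ratio was 0.08 (0.06 to 0.10) in the 1257 pairs of X and -0.02 (-0.03 to -0.01) in the 6108 pairs of chromosomes 2 and 3, and 62.5% (59.7 to 65.1) of X pairs lay above the median against 47.2% (46.0 to 48.5). The 4 arms of chromosomes 2 and 3 ranged from -0.036 on 2R to -0.0083 on 2L. On X the crol-KO peak was wider by a median of 56 bp (48 to 63), on chromosomes 2 and 3 by 28 bp (25 to 31). The new share was 17.9% (16.1 to 19.8) on X and 15.1% (14.3 to 15.9) on chromosomes 2 and 3, and the lost share was 9.67% (8.25 to 11.2) and 10.8% (10.1 to 11.6).

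The background level under the peaks moved in the same direction. Scaled to depth, its crol-KO over WT ratio had a median of 0.995 (0.983 to 1.00) at X pairs and 0.955 (0.951 to 0.958) at pairs of chromosomes 2 and 3. The X background over that of chromosomes 2 and 3 was 0.856 in crol-KO and 0.832 in WT. Crol, mapped in the same genotypes, had a median depth-scaled log2 ratio of 0.16 (0.13 to 0.18) in 1339 X pairs and 0.10 (0.09 to 0.11) in 6187 pairs of chromosomes 2 and 3, so X stood higher for both proteins. The lists do not give the sex of the larvae in each pool, and the part that the share of X-chromosome DNA or the background has in these values was not tested. On the small chromosome 4, 22 of 101 crol-KO peaks were new (21.8%, 14.2 to 31.1) and 2 of 82 WT peaks were lost (2.44%, 0.297 to 8.53), and its 78 pairs had a relative log2 ratio of 0.08 (0.01 to 0.17).

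**Figure D3:**
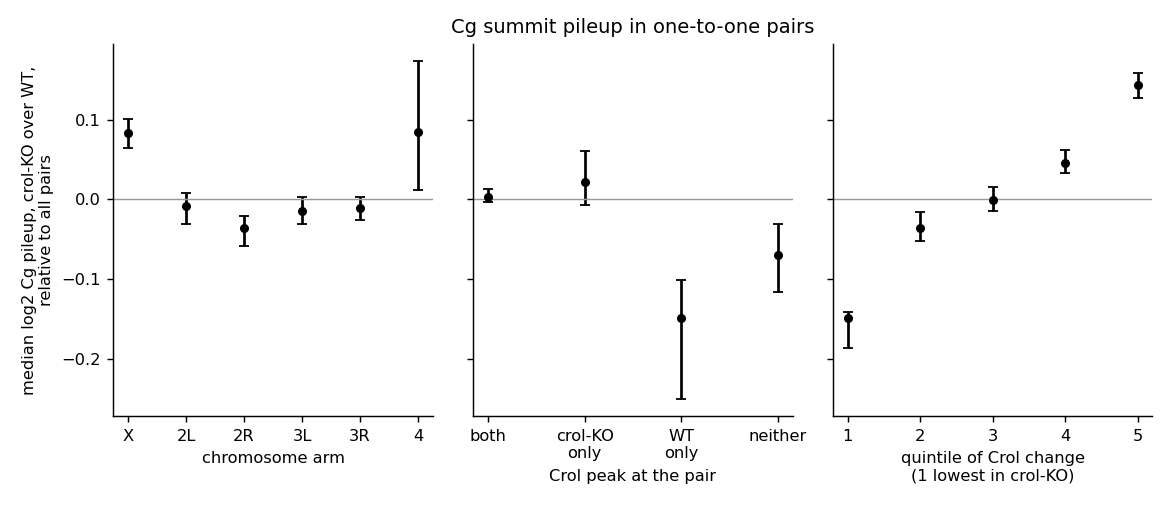
Median log2 ratio of Cg summit pileup, crol-KO over WT, minus the median of all 7443 one-to-one pairs (vertical axis), by chromosome arm (left), by the genotype in which a Crol peak overlapped the pair (middle) and by quintile of the Crol pileup ratio (right); bars are exact 95% intervals of the median. X and chromosome 4 lie above the line, pairs with a Crol peak in WT only lie at -0.15, and the quintiles climb in steps from -0.15 to 0.14.

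New and lost Cg peaks were overlapped by a Crol peak of their own genotype only more often than matched peaks were. Only here means that the second Crol list had no peak over the Cg peak, and such a peak may stand nearby. The recovered depth of the Crol lists was 4.89 M reads in crol-KO and 4.24 M in WT, a ratio of 1.15. The part of this depth in the shares below was not tested. A Crol peak in crol-KO only overlapped 427 of 1455 new Cg peaks (29.3%, 27.02 to 31.8) and 600 of 7844 matched crol-KO Cg peaks (7.65%, 7.07 to 8.26). A Crol peak in WT only overlapped 314 of 943 lost Cg peaks (33.3%, 30.3 to 36.4) and 158 of 7995 matched WT Cg peaks (1.98%, 1.68 to 2.31). The reverse combinations were less frequent among unmatched peaks. A Crol peak in WT only overlapped 103 new peaks (7.08%, 5.81 to 8.52), against 1.87% of matched crol-KO peaks. A Crol peak in crol-KO only overlapped 81 lost peaks (8.59%, 6.88 to 10.6), against 7.80% of matched WT peaks. Unmatched Cg peaks had Crol in both genotypes less often than matched peaks, and no Crol peak more often. Crol peaks of both genotypes overlapped 562 new peaks (38.6%, 36.1 to 41.2) and 338 lost peaks (35.8%, 32.8 to 39.0). They overlapped 87.4% of matched crol-KO peaks and 87.2% of matched WT peaks. No Crol peak overlapped 363 new peaks (24.9%, 22.7 to 27.3) and 210 lost peaks (22.3%, 19.7 to 25.1), against 3.03% and 2.99% of the matched peaks.

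Unmatched Cg peaks were low, so matched and unmatched Cg peaks were also set side by side at the same Cg pileup. Between pileups of 31 and 43, a Crol peak in crol-KO only overlapped 237 of 805 new peaks (29.4%, 26.3 to 32.7) and 172 of 1166 matched crol-KO peaks (14.8%, 12.8 to 16.9). Between 31 and 42, a Crol peak in WT only overlapped 169 of 508 lost peaks (33.3%, 29.2 to 37.6) and 67 of 1443 matched WT peaks (4.64%, 3.62 to 5.86). In the same ranges, a Crol peak in WT only overlapped 6.58% of new and 6.26% of matched crol-KO peaks. A Crol peak in crol-KO only overlapped 8.27% of lost and 16.8% of matched WT peaks. The selection by pileup was made after the data were seen. The summits of both proteins lay close together also at unmatched peaks. At new peaks that overlapped a crol-KO Crol peak the median distance between the Cg and the Crol summit was 48 bp (42 to 51), against 35 bp (34 to 36) at matched crol-KO peaks, and at lost peaks that overlapped a WT Crol peak it was 54 bp (48 to 61), against 42 bp (40 to 43) at matched WT peaks.

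Crol peaks of S2 cells, a cultured line of embryonic origin in which crol was not removed, gave an outside view of these sites. They overlapped 609 of 1455 new peaks (41.9%, 39.3 to 44.4) and 271 of 943 lost peaks (28.7%, 25.9 to 31.7), against 71.3% (70.3 to 72.3) of matched crol-KO peaks and 71.1% (70.1 to 72.1) of matched WT peaks. New peaks thus coincided with S2 Crol sites more often than lost peaks did, at the same median pileup of 36 in the list each came from.

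**Figure D4:**
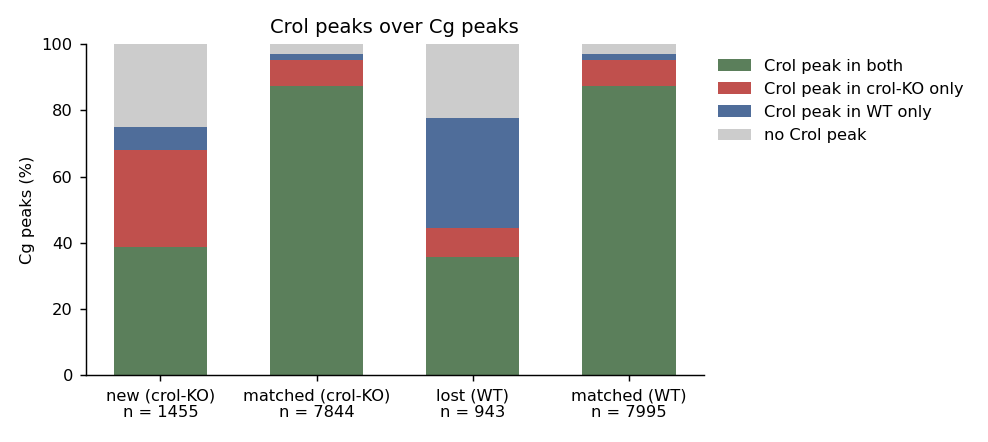
Share of Cg peaks (vertical axis, percent) with a Crol peak in both genotypes, in crol-KO only, in WT only or in neither, for new and matched crol-KO Cg peaks and for lost and matched WT Cg peaks. Crol peaks of crol-KO only make up 29.3% of new peaks, and Crol peaks of WT only make up 33.3% of lost peaks, against 7.65% and 1.98% of the matched peaks of the same lists.

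Matched Cg pairs varied in height along with Crol. The 146 pairs with a Crol peak in WT only had a log2 ratio of -0.15 (-0.25 to -0.10) relative to the median of all pairs, and 34 of them lay above that median (23.3%, 16.7 to 31.0). By recovered depth, none of the 146 was at least 1.5-fold higher in crol-KO, against 3.88% of all pairs. In 9 the pileup was at least 1.5-fold lower (6.16%, 2.86 to 11.4), against 1.81% of all pairs. Relative to the median of all pairs, 0 were higher and 14 lower by that factor. The 232 pairs with no Crol peak gave 0 and 8, and all 7443 pairs 170 and 242. The WT-only pairs were also the class whose crol-KO peaks were narrower, by a median of 24.5 bp (-41 to -2 for crol-KO minus WT). The 590 pairs with a Crol peak in crol-KO only had a relative log2 ratio of 0.02 (-0.01 to 0.06), the 6475 pairs with Crol in both had 0.0035 (-0.0035 to 0.013), and the 232 pairs with no Crol peak had -0.07 (-0.12 to -0.03). The intervals of the WT-only class and of the class with Crol in both did not overlap. Nor did those of the class with no Crol peak and of the class with Crol in both. The WT-only interval did overlap that of the class with no Crol peak. These 2 classes were both low, with median pileups of 42 in crol-KO and 42 and 40 in WT. Pairs with Crol in both had 70 and 63. On chromosomes 2 and 3 alone, the WT-only class stood at -0.20 (-0.27 to -0.12), while the 22 such pairs of X, too few to read, stood at -0.05 (-0.34 to 0.06).

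For 6068 pairs the Cg peak of each genotype met exactly 1 Crol peak and these Crol peaks matched each other, so that the change of both proteins could be read at the same site. Sorted into quintiles by the log2 ratio of Crol pileup, crol-KO over WT scaled to depth, the relative Cg ratio went up in every step. It was -0.15 (-0.19 to -0.14) in the quintile where Crol was lowest in crol-KO, with Crol ratios of -1.89 to -0.22, then -0.035, -0.00042 and 0.046, and 0.14 (0.13 to 0.16) in the quintile where Crol was highest. Cg lay above the median of all pairs in 30.7% (28.1 to 33.4) of the first quintile and 70.2% (67.6 to 72.8) of the last. Of pairs at least 1.5-fold lower than that median, 132 fell in the first quintile and 5 in the last. The Cg width difference had a median of 1 bp (-6 to 9) in the first quintile and 59 bp (51 to 66) in the last. Over the 6068 pairs Pearson's r between both log2 ratios was 0.39 and Spearman's rho 0.34, and over the 5066 pairs off X they were 0.39 and 0.34. These are descriptions across sites of 1 pooled library per protein and genotype, which share the chromatin of that genotype.

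Along the arms, new and lost Cg peaks were spread widely, and a few 500 kb bins held more. Of 243 bins, 5 held no new peak and 12 held no lost peak, with medians of 6 new peaks (0 to 18) and 3 lost peaks (0 to 15). In 132 bins crol-KO had more Cg peaks than WT, in 79 it had fewer, and in 32 the numbers were equal. In the 235 bins with at least 10 peaks, the new share had a median of 15.2% (quartiles 11.1 and 20) and the lost share 9.68% (6.25 and 14.0). New and lost shares did not order the bins alike: over the bins with at least 10 peaks in both lists, r between both shares was 0.10 and rho 0.00. The interval of a bin lay above the genome-wide share in 8 bins for new peaks and 5 for lost peaks, and below it in 3 and 2. These intervals are not adjusted for the number of bins. The counts of bins above moved with the settings, between 2 and 11 for new peaks and between 4 and 12 for lost peaks. The settings also differed in the number of bins counted, from 120 to 419. Single bins are therefore given as places to look.

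One bin stood out in both directions, 10.5 to 11 Mb of 3L. It held 18 new of 64 crol-KO peaks (28.1%, 17.6 to 40.8) and 15 lost of 60 WT peaks (25%, 14.7 to 37.9), the highest counts of both kinds. The new peaks had pileups of 25 to 46, and of these 18 peaks 10 overlapped Crol peaks of both genotypes, 5 a Crol peak in crol-KO only, 1 a Crol peak in WT only and 2 none. The lost peaks had pileups of 28 to 67, the highest at chr3L:10771036-10771557, and of these 15 peaks 10 overlapped Crol peaks of both genotypes, 1 a Crol peak in crol-KO only, 2 a Crol peak in WT only and 2 none. Within 1000 bp of a peak of the second list lay 9 of the new and 7 of the lost peaks. Crol did not stand out in this bin: 16 of 81 crol-KO Crol peaks were new (19.8%, 11.7 to 30.1), against 17.7% over all arms, and 17 of 75 WT Crol peaks were lost (22.7%, 13.8 to 33.8), against 18.6%.

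The next highest counts of new peaks were 14 of 38 crol-KO peaks at 3 to 3.5 Mb of X (36.8%, 21.8 to 54.0), 14 of 63 at 15.5 to 16 Mb of X (22.2%, 12.7 to 34.5), 13 of 49 at 11 to 11.5 Mb of 3L (26.5%, 14.9 to 41.1) and 13 of 57 at 5.5 to 6 Mb of 2R (22.8%, 12.7 to 35.8). Of the 8 bins above the genome-wide new share, 4 were on X. X as a whole held 1654 of the 9299 crol-KO peaks and had a new share of 17.9%, against 15.6% over all arms. In the 2R bin none of 44 WT peaks was lost, which allows a share of up to 8.04%. The next highest counts of lost peaks were 11 of 48 WT peaks at 0.5 to 1 Mb of 2L (22.9%, 12.0 to 37.3), where 2 of 39 crol-KO peaks were new, and 11 of 57 at 12.5 to 13 Mb of 3R (19.3%, 10.0 to 31.9), where 1 of 47 crol-KO peaks was new. On 3R they were followed by 10 of 54 WT peaks at 12 to 12.5 Mb and 10 of 56 at 4.5 to 5 Mb. The highest lost share, in a bin with few peaks, was 7 of 18 at 14.5 to 15 Mb of 2L (38.9%, 17.3 to 64.3). In the same bins the lost shares of Cg and Crol varied together, with r of 0.48 and rho of 0.43 over 235 bins, more than the new shares did, with 0.23 and 0.25.

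**Figure D5:**
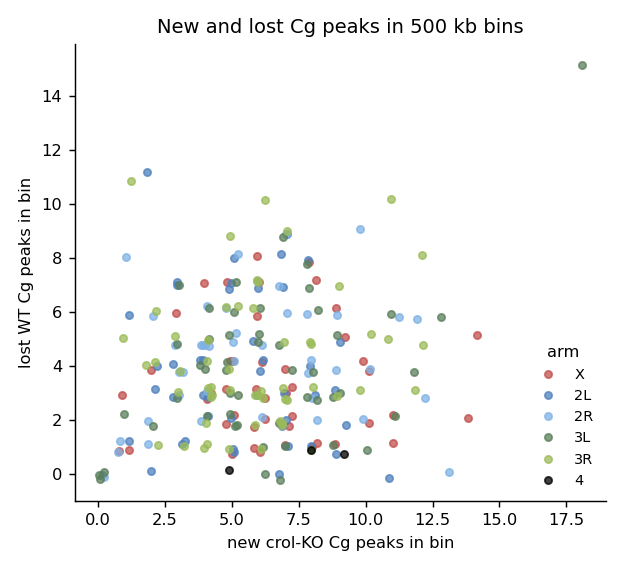
New crol-KO Cg peaks (horizontal axis) and lost WT Cg peaks (vertical axis) in each of 243 bins of 500 kb, coloured by chromosome arm and moved slightly at random so that equal counts can be seen. Most bins hold up to 10 new and up to 8 lost peaks, and the bin at the upper right, on 3L, holds 18 new and 15 lost peaks.

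Neighbouring peaks shared their fate somewhat more often than the list as a whole. The next peak on the arm was also new for 278 of 1454 new peaks (19.1%, 17.1 to 21.2; 15.6% of all crol-KO peaks were new), and also lost for 155 of 943 lost peaks (16.4%, 14.1 to 19.0; 10.6% of all WT peaks were lost). Most stood alone: 963 of the runs of new peaks and 668 of the runs of lost peaks held 1 peak. The longest run of new peaks held 6, on 3R (chr3R:18009328-18097298), with pileups of 28 to 42. A run of 6 lost peaks with pileups of 24 to 44 overlapped it (chr3R:18020821-18165645), so that along this stretch weak peaks of either list interleaved without meeting.

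A second run of 6 lost peaks lay on X (chrX:2918559-2954694), with WT pileups of 50, 36, 39, 33, 39 and 36. These peaks were weak too: their median was 37.5, against 39.5 in the lost run of 3R and 36 over all lost peaks. No crol-KO Cg peak stood within the 36.1 kb of the X run, and the nearest was at least 38410 bp from each of its peaks. Crol peaks of both genotypes overlapped 5 of them, and the remaining peak was overlapped by a WT Crol peak but by no crol-KO Crol peak. Each genotype had 6 Crol peaks within the stretch. At the 6 matched Crol pairs of this stretch the Crol pileup was 38 to 57 in crol-KO and 46 to 114 in WT, and the depth-scaled log2 ratio of Crol lay between -1.65 and -0.36, below 0 in all 6. Here low Cg peaks had no crol-KO partner over a stretch in which Crol peaks remained with lower pileups. The run was named for its length.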

How the data were processed

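ChIP-seq of Cg was analysed in 4 samples, 2 of crol-KO and 2 of WT imaginal discs and brains, grouped by their titles. As the methods and labels state, the authors trimmed reads with Trim Galore 0.6.5, mapped them to dm3 with Bowtie2 2.3.5, removed duplicates with SAMtools 1.13, pooled replicates and called narrow peaks with MACS2 2.2.5 at a q-value of 0.05, without a model, reads being extended to 300 bp. The deposited lists hold peak and summit positions, a score, the fold enrichment (a ratio of pileup to local background at the summit), and p-values and q-values on the −log10 scale, all as the authors' peak caller wrote them. Peak numbers are skipped in both lists, 350 in crol-KO and 357 in WT, and those peaks were not analysed here. In stretches where the other list skips numbers lay 43 new and 47 lost peaks, whose partner may be among them.

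Whole-number pileups and backgrounds were solved from the fold enrichment and p-value, and matched 100% of Cg peaks within a relative 1e-05. The lowest background gave the depth for a 120 Mb genome. The bases were counted and shares computed with Python 3.11.15, numpy 2.4.6, scipy 1.17.1 and pandas 2.3.3. Peaks matched at 1 bp of overlap. The fold changes of pileup are crol-KO over WT. Intervals are Clopper-Pearson for shares, binomial order statistics for medians and conditional binomial for single ratios. Bins were placed by the peak's midpoint. Named peaks were, per arm, the unmatched peak of highest fold enrichment with none of the other list within 1000 bp; then the 3 longest summit shifts, the 3 largest width gains and losses, the 3 merged and 3 split groups with most pieces, the 5 highest and 5 lowest pileup ratios at 50 or more reads, the 5 bins with most new and most lost peaks, and the longest runs; other bins, the widest WT peak and the highest lost peak of the 3L bin were named after their values were seen. The members and lists were chosen with earlier results of these data known. The functions were tested on simulated data. Alternatives were another matching rule, threshold, list length, pair filter, scaling and bin size. No genome of the dm3 build was used, so no genes or sequences are assigned to peaks.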

Additional observations from a re-analysis of the deposited data

Results flagged for a closer look

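Cg peaks were also listed on the heterochromatic sequences of dm3, which the comparison by arm leaves out: 47 in crol-KO and 43 in WT, more than the 3 counts taken as the floor. Of these, 40 in each list overlapped a peak of the second list, 85.1% (71.7 to 93.8) of the crol-KO peaks and 93.0% (80.9 to 98.5) of the WT peaks. Their median fold enrichment was 3.75 in crol-KO and 3.71 in WT.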

How the results depend on the processing

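No paired analysis was possible because the reads of both replicates were pooled before peak calling; for the same reason no replicate could be left out. The share of crol-KO Cg peaks matched, 84.4%, was 79.1% when 50% of both peaks had to overlap, 88.6% within 1000 bp, 79.6% with summits within 200 bp and 86.2% with the crol-KO list cut to the WT length. The share of WT peaks matched, 89.4%, was 82.3%, 92.0%, 82.8% and 88.0% under those settings in that order, and 90.2% at a −log10 q of at least 5. At a −log10 q of at least 5, 96.5% of groups were one-to-one and the median summit distance was 33 bp. Above the median of fold enrichment the summit distance was 29 bp, the width difference 39 bp and the log2 pileup ratio 0.12. That ratio was 0.13 after subtraction of the background and reversed to -0.039 when scaled by the top 10% of pairs. This scaling fixes only the median of those top pairs, not the sign over all pairs. The same scaling, added for Crol after seeing the data, turned the median log2 ratio of Crol pairs to -0.031. Bins above the new share numbered 8 of 235 in the main setting. They numbered 2 of 233 at a −log10 q of at least 5, 5 of 234 at the WT length and 5 of 120 with 1 Mb bins. Bins above the lost share numbered 5 of 235 in the main setting. They numbered 9 of 235 within 1000 bp, 9 of 237 with bins shifted by 250 kb and 12 of 412 with 250 kb bins. At the WT length the next peak was also lost for 19.3% of lost peaks. Among matched WT peaks with the pileup of lost peaks, an alternative added after seeing the data, 4.64% had a Crol peak in WT only. The cause of these moves was not tested. The remaining 25 of 50 alternatives stayed within the interval or within 1.5 times the count. The depth limits calls of low peaks: listed summits began at 20 reads in crol-KO and 21 in WT, and new and lost peaks had a median of 36.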
